A study of Saccharomyces cerevisiae with 48 samples.

Results

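The 26 long reading frames of Ty retrotransposons described here are the protein-coding genes of the budding yeast gene table (assembly R64) whose systematic name ends in -B and whose length is 4000 bp or more, out of 6002 protein-coding genes on the 16 nuclear chromosomes. Of the 57 genes with a name ending in -B, the longest below the length limit was YFL002W-B at 1317 bp and the shortest above it was YGR109W-B at 4645 bp. The frames lie on 8 chromosomes. By length, 13 measure 5269 bp, 7 measure 5314 bp, 2 measure 5272 bp, and 1 each measures 4645, 5251, 5383 and 5410 bp. In each of the 26 a shorter frame of 873 to 1437 bp begins at the same position, which is the layout of the TYA and TYB frames.

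Ty elements are retrotransposons that copy themselves through an RNA and insert the copy elsewhere in the genome. RNA polymerase II transcribes the element from its 5' long terminal repeat, TYA encodes the shell protein of the virus-like particle, and the long TYA-TYB frame adds protease, integrase and reverse transcriptase through a ribosomal frameshift. Most families insert just upstream of genes read by RNA polymerase III, chiefly tRNA genes, and the initiator methionine tRNA primes reverse transcription. The copies of a family are near-identical, so a short read from one often matches several, and which copy a peak belongs to is uncertain. The sources used here do not give how the authors placed such reads or which copies each strain carries.

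The study mapped RNA polymerase II and negatively supercoiled DNA in strains mutated in the helicase Sen1, which acts in termination of non-coding transcription, and the helicase Rrm3, which lets replication forks pass bound proteins. Rpb1, the catalytic core subunit of that polymerase, was mapped by chromatin immunoprecipitation with antibody 8WG16 from S-phase cultures of wild type, sen1, rrm3 and sen1rrm3. Biotinylated trimethylpsoralen (bTMP), which enters under-wound DNA preferentially, was mapped by pull-down in S phase in those 4 strains, in log phase in those strains alone and with top1, and at 32 °C in those strains alone and with top2-1, top1 and top2-1 being mutations of topoisomerases that relax supercoils. These immunoprecipitates gave 24 peak lists, 1 per strain and condition, without replicates, and the 24 input libraries were not analysed here. All cultures grew first in YPG and then in YPD. S-phase cells were arrested in G1 with alpha factor and taken 45 to 50 min after release at 23 °C. Log cultures had 2.5 h in YPD, and the top2-1 strains were kept for 1.5 h at 25 °C before 1 h at 32 °C, while the labels give the other strains at 32 °C no schedule of their own. The labels name the sen1, rrm3 and top1 strains without saying what the alleles are, top2-1 is known as a temperature-sensitive allele, and the sources used here do not give the strain background.

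The measure used throughout is cover, the percentage of a frame, or of the 1 kb on either side of it, that lies under the peaks of a list. Upstream and downstream follow the strand of the frame, and a window is touched when any of it lies under a peak. Read depth is unknown, so the length of a list may follow sequencing depth as well as the cells. The Rpb1 lists held 2016 to 2136 peaks and lay on 18.9% to 20.2% of nuclear DNA. The bTMP lists were of 2 kinds. In 14, neighbouring peaks came as close as 156 to 166 bp and 7.0% to 11.7% of the genome was covered. In the other 6, the 4 S-phase lists and the 32 °C lists labelled sen1 and sen1rrm3, no gap was under 591 bp and 17.5% to 25.9% was covered. Over the Ty frames the list labelled 32 °C sen1 differed from the S-phase sen1 list by a median of 1.33 percentage points, and the list labelled 32 °C sen1rrm3 from the S-phase sen1rrm3 list by 0.405, against 18.6 between the wild-type lists of these conditions. Comparisons that set one of these 2 lists against a closely spaced 32 °C list therefore mix the kinds, and their values are marked as mixed below. Whether these 2 lists carry the label of another culture or were called with other settings was not tested, and every value from them holds for the lists so labelled, not for the 32 °C condition. RRM3 and TOP1 served as a check of the rrm3 and top1 labels. RRM3 was covered in 0 of 10 bTMP lists from rrm3 strains and in 7 of the 10 others. TOP1 was covered in 1 of 4 lists from top1 strains and in 16 of the 16 others. At 32 °C RRM3 had 0% in wild type too. SEN1 had 6.84% in S-phase wild type and 0% in S-phase sen1, but 1.72% and 6.56% in log phase. TOP2 had 9.38% in 32 °C wild type and 9.31% in top2-1. The sen1 and top2-1 labels were therefore not checked in this way.

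Ty frames carried more Rpb1 on average than all protein-coding genes in S-phase wild type. Cover differed between groups of equal length but did not rise or fall steadily with length. Mean cover of the 26 frames was 47.6% in wild type, 55.4% in sen1, 48.3% in rrm3 and 54.8% in sen1rrm3. Over all protein-coding genes it was 23.0%, 24.6%, 22.8% and 23.0%, and over the 214 other genes of 4000 bp or more it was 14.3%, 15.7%, 13.9% and 16.02%. Those 214 include 15 genes with exactly the length of one of the frames, and without these the 199 others had 11.7%, 12.0%, 11.3% and 12.5%. At least 50% of the frame was covered in 13 of 26 frames in wild type, 18 in sen1, 14 in rrm3 and 18 in sen1rrm3, whereas 21.9%, 24%, 21.6% and 22.1% of all protein-coding genes reached that level. With 1 library per strain none of these values has a replicate error, and differences between strains were not tested.

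The 13 frames of 5269 bp and the 7 of 5314 bp narrowly failed to overlap in wild type, but overlapped in each mutant strain. In wild type the first spanned 36.6% to 83.9% with a median of 74.0%, and the second 0% to 36.2% with a median of 7.66%. The lowest frame of 5269 bp and the highest of 5314 bp had 37.7% and 69.01% in sen1. These values were 37.1% and 43.5% in rrm3, and 38.8% and 73.3% in sen1rrm3. The median of the 5269 bp frames was the higher in every strain. This grouping by length was made after the values had been seen. Genes left out by the name rule but of these exact lengths, 11 of 5269 bp and 3 of 5314 bp, had wild-type medians of 71.5% and 5.51%. They include YGR161C-D, itself a Ty frame, and whether the others are Ty copies was not examined. Copies share sequence, so these genes are not separate support for the split.

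The most covered frames were YGR027W-B, YPL257W-B, YDR365W-B, YOL103W-B and YPR137C-B, all of 5269 bp. YGR027W-B had 83.4% of its length under Rpb1 in wild type, 84.2% in sen1, 84.1% in rrm3 and 82.9% in sen1rrm3. YPL257W-B had 83.9%, 83.5%, 84.3% and 82.6% in the same order, and YOL103W-B had 79.6%, 80.5%, 79.1% and 79.9%. These frames were covered to nearly the same extent whatever the strain. YDR365W-B ranged from 76.7% in wild type to 84.1% in rrm3, and YPR137C-B from 73.8% in rrm3 to 80.6% in sen1rrm3.

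At the other end stood frames with little or no polymerase. YHL009W-B, the frame of 5410 bp, had no Rpb1 peak in any of the 4 strains, neither over the frame nor in its flanks. YPL060C-A, the one other gene of that length, had none over its body either. YGR109W-B, the frame of 4645 bp, was free of Rpb1 except for 0.667% of its length in sen1. YDR261W-B had 3.56% covered in sen1 and 0% in the other strains. YDR210W-B had 5.68% in wild type, 14.2% in sen1, 6.12% in rrm3 and 13.6% in sen1rrm3, and YOR192C-B had 3.59%, 13.6%, 4.76% and 20.9%. Both frames stayed low in every strain and were higher in the lists with sen1, at 1 library each.

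**Figure D1:**
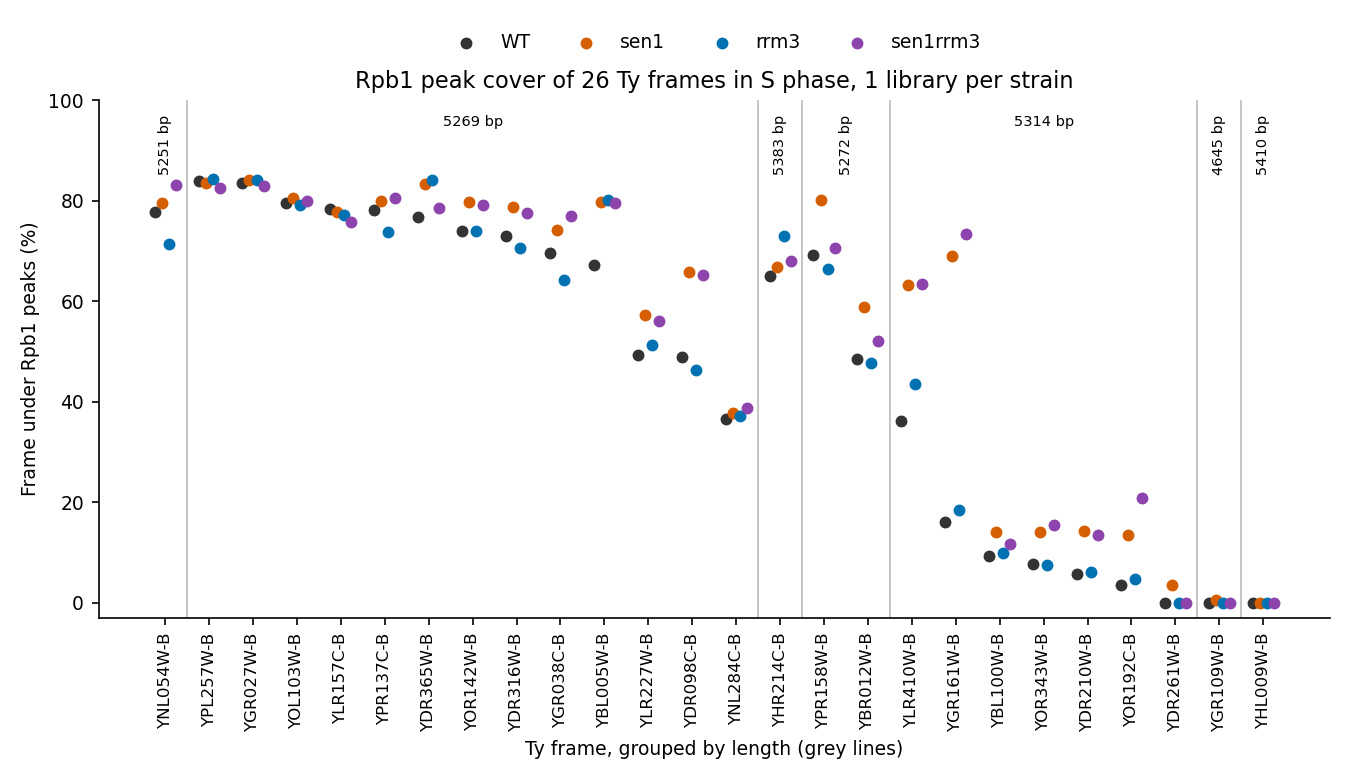
Percentage of each Ty frame (x axis, grouped by frame length) under Rpb1 peaks (y axis) in S-phase wild type, sen1, rrm3 and sen1rrm3, 1 point per library. The 13 frames of 5269 bp lie between 36.6% and 83.9% in wild type, 5 of the 7 frames of 5314 bp stay low in all 4 strains, and YGR161W-B and YLR410W-B stand higher in the 2 strains with sen1.

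No frame was lower by at least 10 points in a list with sen1 than in the matching list without it. Cover of the frame was higher in sen1 than in wild type by at least 10 points in 6 of 26 frames and lower by as much in 0, against 12% and 9.78% of all protein-coding genes. The pair sen1rrm3 against rrm3, which shares no library with it, also had 6 higher, against 9.73% of all genes. They were not the same 6: only YDR098C-B, YGR161W-B and YLR410W-B were higher in both pairs. The pair rrm3 against wild type had 1 higher, against 4.97%. The largest differences fell on 2 frames of 5314 bp. YGR161W-B had 16.03% in wild type, 69.01% in sen1, 18.4% in rrm3 and 73.3% in sen1rrm3. YLR410W-B had 36.2%, 63.2%, 43.5% and 63.3% in the same order. In both frames each list with sen1 lay above each list without it. The other 4 were YDR098C-B, with 49.0% in wild type and 65.8% in sen1, YBL005W-B with 67.3% and 79.8%, YPR158W-B with 69.2% and 80.05%, and YBR012W-B with 48.6% and 58.8%. YBL005W-B was also the frame that was higher in rrm3, at 80.1%. The 3 outside genes of 5314 bp went the same way, with YCL019W at 11.01% in wild type and 66.1% in sen1, YFL002W-A at 5.51% and 63.9%, and YDR034C-D at 0% and 33.5%. Since copies share sequence, these genes are not separate observations. A frame counts as gained when at least 50% of it is covered in a mutant and 0% in wild type, and as lost in the reverse case. By this rule 0 of 26 frames were gained and 0 lost in sen1, where 1.88% and 0.716% of all genes were.

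The position of the polymerase along the frame was more regular than its amount. Each frame was divided into 10 equal segments. In the 13 frames of 5269 bp the first segment, which holds the start of TYA, had no Rpb1 in any of the 4 strains. Mean cover was 23.7% in the second segment and 82.5% in the third in wild type, reached 96.1% in the fourth, and declined to 64.5% in the last. In sen1 and sen1rrm3 the last segment stayed at 90.3% and 91.5%, whereas rrm3 had 72.4%. Peaks in the sen1 strains thus ran on to the 3' end of these frames. In the 199 other long genes the same last segment had 15.9% in wild type, 18.7% in sen1, 16.9% in rrm3 and 19.4% in sen1rrm3, with no empty first segment (11.003% in wild type). In the 7 frames of 5314 bp the last segment was the most covered of the 10 in each strain, at 52.9% in wild type, 78.6% in sen1, 53.7% in rrm3 and 70.7% in sen1rrm3.

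Beyond the frame, more flanks held Rpb1 in sen1. The 1 kb upstream, which contains the 5' long terminal repeat where Ty transcription begins and often a neighbouring gene, was touched in 7 of 26 frames in wild type (26.9%, exact 95% binomial interval 11.6% to 47.8%), 17 in sen1 (65.4%, 44.3% to 82.8%), 7 in rrm3 and 11 in sen1rrm3 (42.3%, 23.4% to 63.1%). Over all protein-coding genes 32.5%, 37.6%, 32% and 34.2% were touched there. The 1 kb downstream was touched in 15 frames in wild type (57.7%, 36.9% to 76.6%), 21 in sen1 (80.8%, 60.6% to 93.4%), 17 in rrm3 and 18 in sen1rrm3, against 46.4%, 46.6%, 46.6% and 45.4% of all genes. These intervals cover counting error only. Upstream, the wild-type and sen1rrm3 intervals each hold the share of all genes in that strain, and the sen1 interval lies above its share. The difference between strains was not tested. Copies of a family are not independent, so the intervals may be too narrow.

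Mean cover of the upstream flank was 15.1% in wild type, 31.6% in sen1, 15.2% in rrm3 and 22.6% in sen1rrm3, and of the downstream flank 16.6%, 30.9%, 20.8% and 28.2%. In sen1 against wild type, 10 upstream flanks were higher by at least 10 points and 1 was lower, YLR410W-B with 49.8% in wild type and 35.8% in sen1, where 13.5% and 6.65% of all genes were. Downstream, 11 were higher and 1 was lower, YPR137C-B with 43.1% in wild type and 21.9% in sen1, against 9.98% and 11.7% of all genes.

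Upstream, 4 flanks went from 0% in wild type to at least 50% in sen1, where 2.08% of all genes did so. The flank of YLR157C-B, which holds the 5S ribosomal RNA gene RDN5-4, the asparaginase gene ASP3-3, YLR157W-E and YLR157C-C, was free of Rpb1 in wild type and rrm3 and had cover of 91.5% in sen1 and 94.1% in sen1rrm3. The peak of the sen1 list runs on chromosome XII from 481687 to 482843 in the coordinates of the deposited list, counted from 1, and the sources used here do not name their build. It was the 1 flank also gained in sen1rrm3 against wild type, where 1.33% of all genes were gained.

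The flank of YOR142W-B, which holds the glycine tRNA gene SUF5, had 0% in wild type and rrm3, 64.1% in sen1 under a peak on chromosome XV from 594342 to 594982, and 30.6% in sen1rrm3. The flank of YOL103W-B holds NDJ1, a meiotic telomere gene, and had 60.3% in sen1 (chromosome XV, 116258 to 117602) and 0% in the 3 other strains. The flank of YPR158W-B holds CUR1, which acts in protein quality control, and had 59.8% in sen1 (chromosome XVI, 843552 to 844306), 38.6% in sen1rrm3 and 0% in the others. The fifth largest rise upstream was at YOR192C-B, beside the initiator methionine tRNA gene IMT1, with 33.9% in sen1 and 0% in the 3 other strains. All 5 flanks were empty in both strains without sen1, and 2 of the 5 were empty in sen1rrm3.

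Downstream, YNL054W-B was the 1 flank gained in sen1, where 1.08% of all genes were, with 0% in wild type and rrm3, 54.2% in sen1 (chromosome XIV, 522978 to 525248) and 33.3% in sen1rrm3. YHR214C-B had 0% in wild type, 45.5% in sen1, 33.9% in rrm3 and 18.0% in sen1rrm3. YGR161W-B, whose downstream flank reaches the Ty frame YGR161C-D on the other strand, had 0%, 42.9%, 24.2% and 43.0% in that order. These flanks were empty in wild type and covered in every other strain, except YNL054W-B in rrm3. YDR098C-B, which has a tRNA gene 633 bp downstream, had 14.8%, 55.4%, 13.2% and 32.3%, and YPR158W-B had 0%, 35.7%, 0% and 20.5%.

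**Figure D2:**
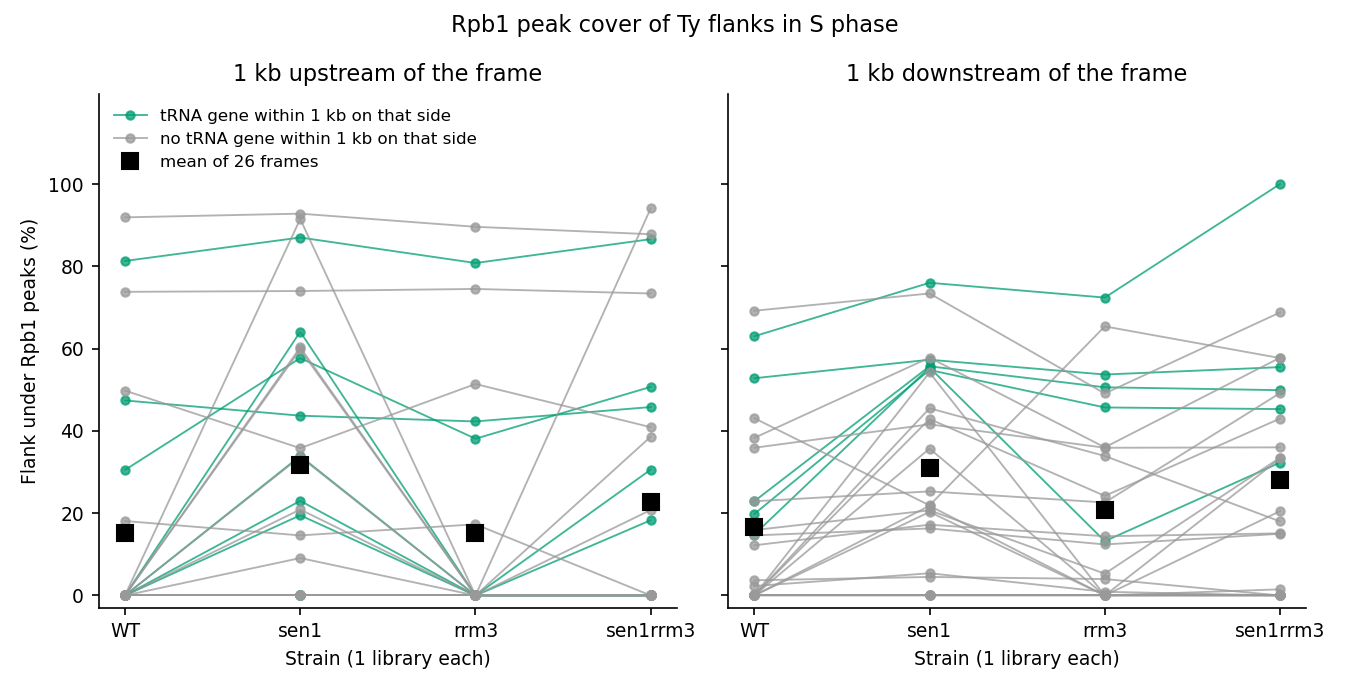
Percentage of the 1 kb upstream (left) and downstream (right) of each Ty frame under Rpb1 peaks (y axis) in the 4 S-phase strains (x axis), 1 line per frame, green where a tRNA gene lies within 1 kb on that side, black squares the mean of 26 frames. Mean upstream cover is 15.1% in wild type and 31.6% in sen1, and several flanks that are empty in wild type and rrm3 have cover in sen1, with and without a tRNA gene on that side.

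The tRNA genes beside the frames followed other tRNA genes. Of the 26 frames, 16 have a tRNA gene within 1 kb, at 286 to 818 bp with a median of 479.5 bp, and 9 have one within 500 bp. In 16 of these 16 the frame lies on the 5' side of the tRNA gene, the side on which Ty elements are known to insert, as it does for 7 of the other 10, whose nearest tRNA gene is farther away. These frames have 17 tRNA genes within 1 kb. Rpb1 touched 4 of the 17 in wild type (23.5%, exact 95% binomial interval 6.81% to 49.9%), 9 in sen1 (52.9%, 27.8% to 77.0%), 6 in rrm3 and 7 in sen1rrm3. Among the 258 other nuclear tRNA genes it touched 55 (21.3%), 127 (49.2%), 56 (21.7%) and 101 (39.1%), and over all 275 the shares were 21.5%, 49.5%, 22.5% and 39.3%. The interval for the 17 holds the share of the others in each strain. A tRNA gene within 1 kb of a Ty frame was therefore not seen to differ from the rest at this number of genes.

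Single tRNA genes differed widely. EMT2, an elongator methionine tRNA gene beside YOR343W-B, and YNCP0019W beside YPR137C-B were fully covered in all 4 strains. SUF5 had 0% in wild type and rrm3, 100% in sen1 and 93.1% in sen1rrm3, and YNCP0001C beside YPL257W-B had 0%, 15.1%, 100% and 91.5% with the strains in that order. IMT1 was covered in sen1 alone, at 100%. Of the 17, 8 had no Rpb1 in any strain.

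Flank cover moved with sen1 on the sides without a tRNA gene as well. In the 16 frames with a tRNA gene within 1 kb, mean Rpb1 cover of the flank on the tRNA side was 20.8% in wild type and 39.3% in sen1, and of the opposite flank 21.5% and 31.1%. In the 20 flanks of the 10 frames without such a gene it was 7.37% and 25.0%. In sen1rrm3 the 3 values were 32.2%, 26.7% and 18.9%, and in rrm3 24.8%, 20.9% and 10.1%. Whether the difference with sen1 depends on the tRNA gene was not tested.

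bTMP lay over the Ty frames in 19 of 20 lists at more than the share of the genome that the list covers. The exception was log-phase wild type, with a mean cover of 4.85% of the frame, or 0.582 times the share of the nuclear genome under that list, and the highest ratio was 5.53 in log-phase sen1rrm3. The 1 kb upstream exceeded the genome share in 13 lists and the 1 kb downstream in 6, so the excess was mainly within the frame. In S phase the mean frame cover was 18.1% in wild type, 83.5% in sen1, 77.4% in rrm3 and 85.1% in sen1rrm3, while all protein-coding genes had 20.7%, 27.7%, 23.9% and 24.9%. At least 50% was covered in 0 of 26 frames in wild type, 25 in sen1, 23 in rrm3 and 25 in sen1rrm3, against 16.3%, 23.5%, 19.3% and 20.4% of all genes.

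**Figure D3:**
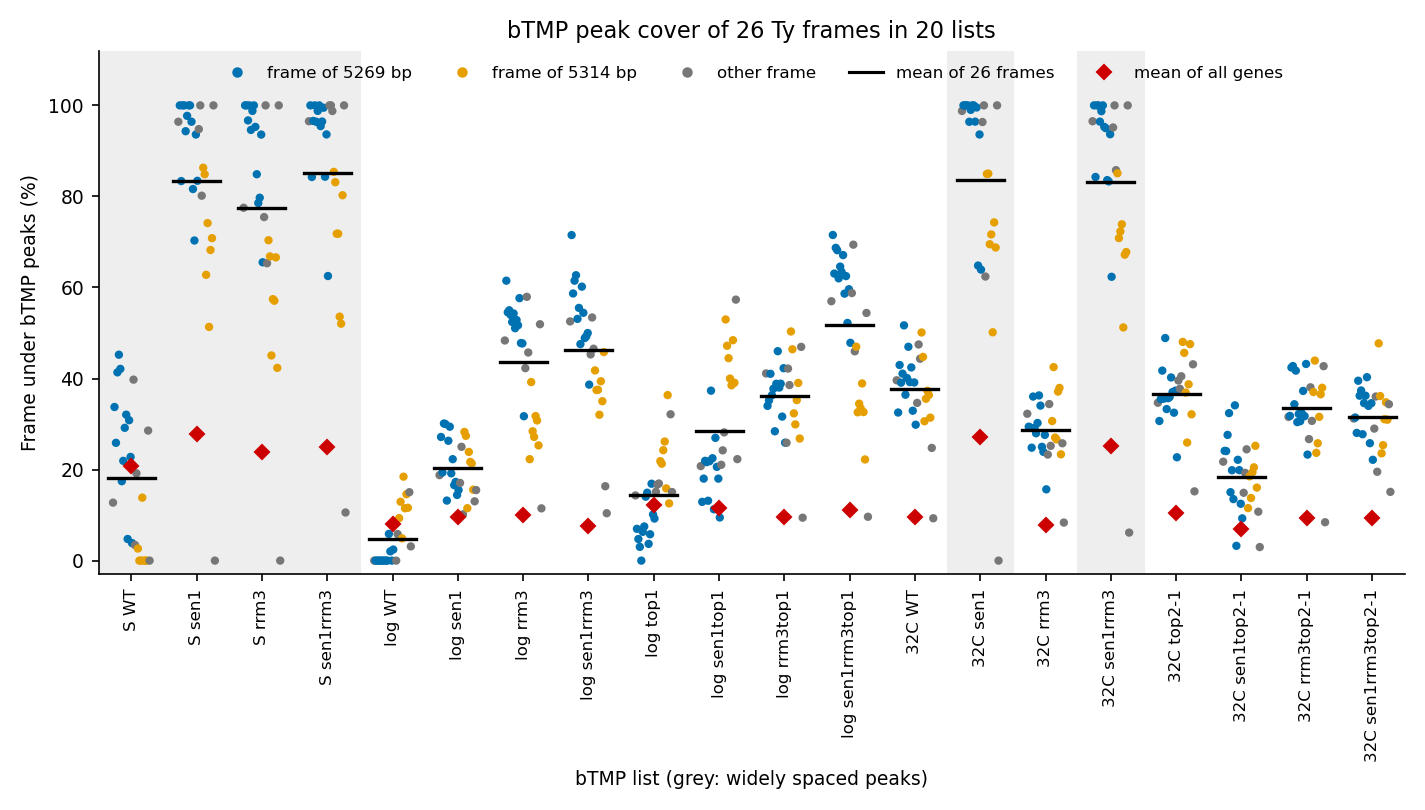
Percentage of each of the 26 Ty frames under bTMP peaks (y axis) in each of the 20 lists (x axis, grey where peaks are widely spaced), with blue points for frames of 5269 bp, orange for 5314 bp, black lines for the mean of 26 frames and red diamonds for the mean of all protein-coding genes. Wild type is lowest in S phase and in log phase, at 18.1% and 4.85%, below the mean of all genes, and in the S-phase mutants 1 grey point, YHL009W-B at 0% to 10.6%, lies far below the other frames.

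In log phase the mean frame cover was 4.85% in wild type, 20.4% in sen1, 43.6% in rrm3 and 46.4% in sen1rrm3. With top1 added to each of these strains in that order it was 14.3%, 28.5%, 36.1% and 51.8%. All-gene means of these 8 lists lay between 7.59% and 12.2%, without that order. At least 50% of the frame was covered in 12 frames in rrm3, 10 in sen1rrm3 and 16 in sen1rrm3top1, against 4.15%, 3.05% and 4.62% of all genes. In wild type 14 of 26 frames were touched, against 40.4% of all genes and 117 of the 214 other genes of 4000 bp or more. The 25 peaks on the frames had a median score at the 20.0th percentile of their list. In rrm3 the frames held 147 peaks with a median at the 66.7th percentile. The score is the authors' own value per peak and serves here to rank peaks within a list.

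Among the closely spaced 32 °C lists wild type had the highest mean cover of the frames. Mean frame cover was 37.7% in wild type, 28.6% in rrm3, 36.6% in top2-1, 18.3% in sen1top2-1, 33.4% in rrm3top2-1 and 31.6% in sen1rrm3top2-1, all in closely spaced lists. It was 83.7% in the widely spaced list labelled sen1 and 83.3% in that labelled sen1rrm3. Wild type at 32 °C was 32.9 points above wild type in log phase, while rrm3 at 32 °C differed from rrm3 in log phase by -15.04 points, both within the closely spaced kind.

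The frame with the least bTMP was YHL009W-B, which also had no Rpb1. Its lowest, median and highest cover over the 20 lists were 0%, 9.36% and 22.3%. The other low frames were YNL284C-B, YDR210W-B, YBL100W-B and YDR261W-B, with means over 20 lists of 32.3%, 34.6%, 34.7% and 35.0%. Their medians lay between 24.6% and 37.2% and their highest values between 57.1% and 83.4%. The 5 highest means, 50.0% to 51.7%, belonged to YLR157C-B, YOL103W-B, YDR316W-B, YPR158W-B and YPL257W-B. YLR157C-B went from 0% in log-phase wild type to 100% in S-phase sen1, rrm3 and sen1rrm3, and YOL103W-B from 0% to 100% in S-phase sen1. Between the highest 5 means the gaps were small beside the range of any 1 frame over the lists.

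Frames of 5269 and 5314 bp differed in bTMP in some lists, and the order turned between strains. The ranges did not overlap in log-phase sen1top1, at 9.47% to 37.3% and 38.5% to 53.0%. Nor did they in log-phase sen1rrm3top1, at 47.8% to 71.5% and 22.2% to 47.0%. The medians were 96.4% and 70.8% in S-phase sen1, and 95.3% and 57.4% in S-phase rrm3. They were close in some lists, with 39.2% and 36.4% in 32 °C wild type, and 37.7% and 35.3% in log-phase rrm3top1. In the log-phase wild-type and rrm3 lists the ranges overlapped. In log-phase wild type the 7 frames of 5314 bp had 4.89% to 18.4% covered and the 13 of 5269 bp 0% to 5.86%, with 10 of the 13 untouched. In log-phase rrm3 the frames of 5269 bp had 31.7% to 61.5% and those of 5314 bp 22.3% to 39.2%. In S-phase wild type the frames of 5269 bp had a median of 29.2% and those of 5314 bp 0%, with 2 of the 7 touched. The groups were made after the values were seen and get no test.

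Along the frames of 5269 bp, S-phase wild type had bTMP at the 5' end and Rpb1 further in. bTMP cover was 78.8% in the first and 83.9% in the second of the 10 segments, 18.9% in the third and 0% in the fourth to sixth, with a second, lower stretch of 36.4% and 43.1% in the eighth and ninth. In sen1, rrm3 and sen1rrm3 the lowest segment was the last, at 80.3%, 74.5% and 77.1%, and the fourth had 100% in all 3. The frames of 5314 bp were nearly empty in wild type, with 10.7% in the first segment and 12.9% in the last and 0% between. In the mutants they filled in blocks, the third and eighth segments having 96.1% and 100% in sen1, 100% and 100% in rrm3, and 100% and 100% in sen1rrm3, and the fourth 18.6%, 19.8% and 23.5%.

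Little of the DNA under Rpb1 on the frames lay under bTMP in S-phase wild type, and nearly all of it did in the mutants. Of the Rpb1-covered base pairs of the 26 frames, 18.6% also lay under bTMP in wild type, 92.5% in sen1, 91.9% in rrm3 and 93.8% in sen1rrm3. Over the nuclear genome these shares were 21.3%, 35.7%, 28.9% and 32.3%. Mean bTMP cover of whole frames was itself 18.1% in wild type, 83.5% in sen1, 77.4% in rrm3 and 85.1% in sen1rrm3. Outside Rpb1, bTMP covered 71.8% of the base pairs of the 26 frames in sen1, 63.4% in rrm3 and 74.0% in sen1rrm3. The high mutant shares were thus not confined to DNA under Rpb1. In the frames of 5269 bp in wild type bTMP covered 18.1% of the base pairs under Rpb1 and 47.0% of those outside it. In the frames of 5314 bp it covered 8.61% under Rpb1 and 1.57% outside, and over all 26 frames 18.6% and 17.6%, so lower bTMP under Rpb1 was seen in the 5269 bp frames alone of these 3 groupings. In sen1 the 5269 bp frames had 94.5% and 86.4%. These are separate libraries of each strain, and the S-phase wild-type bTMP list, which covers less of the genome than the other widely spaced lists, enters each wild-type value.

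**Figure D4:**
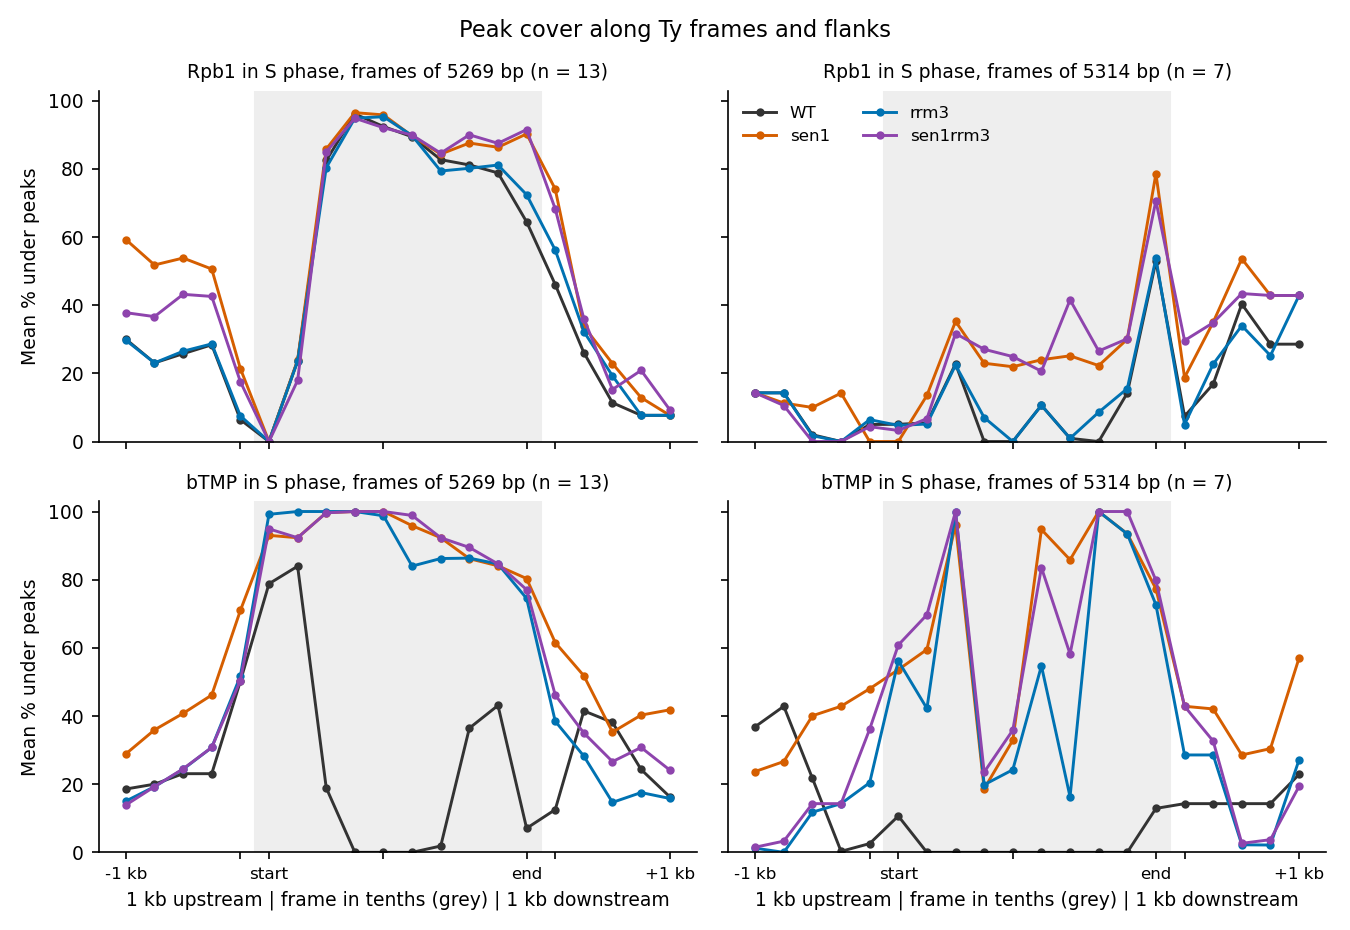
Mean percentage under Rpb1 peaks (top) and bTMP peaks (bottom) along the 1 kb upstream in bins of 200 bp, the frame in 10 equal segments (grey) and the 1 kb downstream, for the 13 frames of 5269 bp (left) and the 7 of 5314 bp (right) in 4 S-phase strains. In wild type the frames of 5269 bp have bTMP at the 5' end, 78.8% in the first segment, where Rpb1 is at 0%, while in the 3 mutants no segment has less than 74.5% bTMP cover.

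bTMP peak borders recurred at the same place in different copies. In log-phase rrm3, 11 of the 13 frames of 5269 bp had a peak that began 985 to 997 bp into the frame, and in 32 °C wild type 11 of 13 had one at 986 to 1000 bp. In log-phase wild type 7 of 7 frames of 5314 bp had a peak that began 3712 to 3720 bp into the frame, and in log-phase rrm3 6 of 7 had one at 3712 to 3717 bp. Borders were matched within 10 bp. Rpb1 borders were shared by at most 4 of 13 frames in any strain. Reads that match several copies can place the same border in each of them, and their part in this was not tested.

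The sen1 pairs ask whether bTMP cover of a frame shifts with sen1 over the 10 backgrounds in which lists differ in sen1 only. Mean cover of the 26 frames was higher with sen1 in 8 of 10 pairs. The difference was 65.4 points in S phase on wild type and 7.70 on rrm3, 15.5 in log phase and 2.72 on rrm3, 14.2 on top1, 15.7 on rrm3top1, and 46.0 and 54.6 in the mixed 32 °C pairs on wild type and rrm3. It was -18.3 on top2-1 and -1.77 on rrm3top2-1. The all-gene mean moved by 6.998 points in S phase, by 1.58 in log phase and by 17.5 in each of the mixed pairs, and by -3.51 on top2-1. In log phase 19 frames were higher in sen1 than in wild type by at least 10 points and in S phase 25, against 14.5% and 30.4% of all genes.

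With rrm3 the frames had more bTMP in all 4 log-phase backgrounds. Mean cover of the frames was higher by 38.8 points in log phase on wild type, 25.98 on sen1, 21.8 on top1 and 23.3 on sen1top1, while the all-gene mean moved by 1.93, -2.10, -2.68 and -0.35 points. In S phase it was higher by 59.2 points on wild type and by 1.58 on sen1. At 32 °C it was lower by 9.11 points on wild type (a difference of -9.11), and the other 3 differences were -0.43 on sen1, -3.23 on top2-1 and 13.3 on sen1top2-1. The mean was thus higher in 7 of 10 pairs, including all 6 from S and log phase. In log phase 24 frames were higher in rrm3 than in wild type by at least 10 points and in S phase 25, against 12.9% and 29.1% of all genes.

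**Figure D5:**
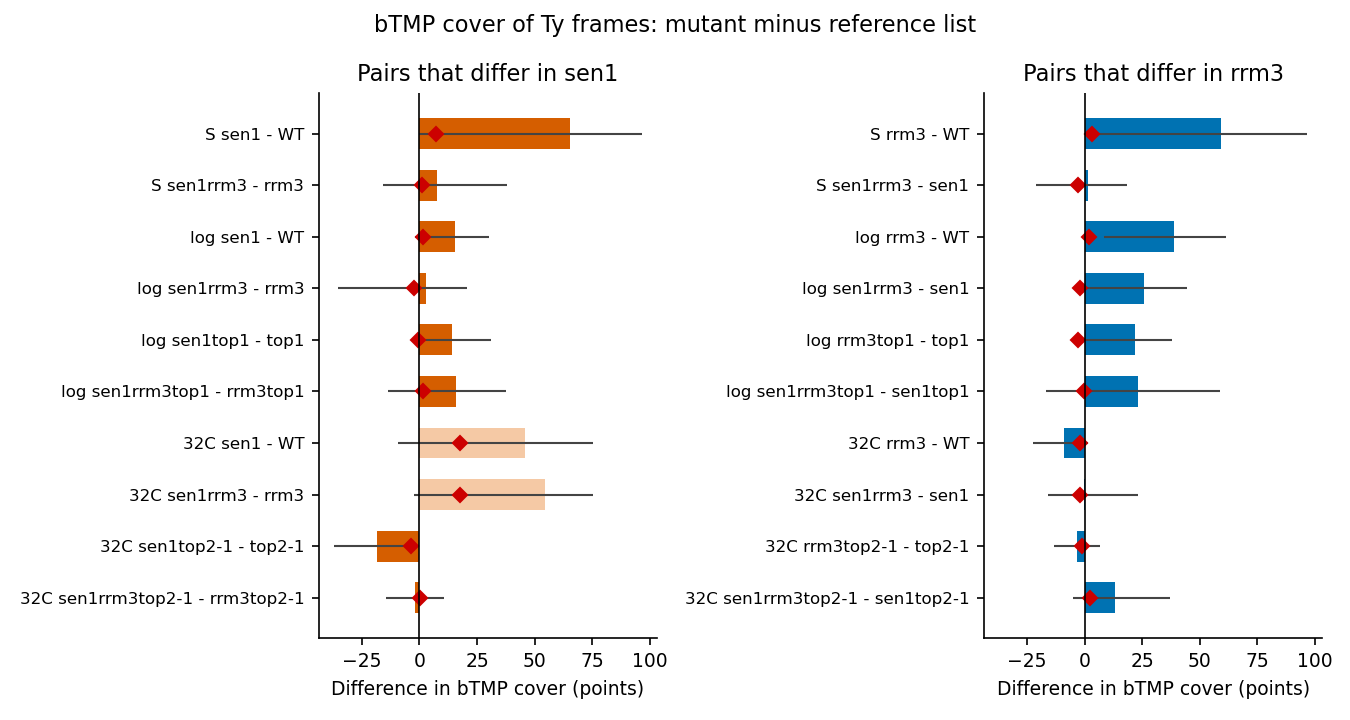
Difference in bTMP cover of the Ty frames in percentage points (x axis) for the 10 pairs that differ in sen1 (left, pale where the lists are of mixed kinds) and the 10 that differ in rrm3 (right), with bars for the mean of 26 frames, grey lines for their lowest to highest frame and red diamonds for the mean of all protein-coding genes. All 6 rrm3 pairs of S and log phase lie above 0, from 1.58 to 59.2 points, and the 32 °C pairs lie near or below it except that on sen1top2-1.

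No single frame passed the test over the pairs after adjustment. Differences over the 10 pairs were tested by exact sign-flip permutation, two-sided, for each of the 5235 protein-coding genes with bTMP cover in at least 1 list, among them all 26 frames, with Benjamini-Hochberg adjustment, and the smallest p it allows is 0.00195. The smallest adjusted p of a frame was 0.814 for sen1 and 0.777 for rrm3, which are also the smallest over all genes, so the number of adjusted calls was 0 of 5235 in both contrasts. limma with the pair as a block also gave 0, with smallest adjusted p of the frames of 0.649 and 0.619. At an unadjusted p under 0.05 there were 237 genes for sen1 and 287 for rrm3. Among these were 13 frames higher with sen1, against 3.9% of all genes, and 15 higher with rrm3, against 2.6%, and 0 lower, against 0.63% and 2.88%. Copies share sequence, so the frames are not independent of each other, and the sen1 and rrm3 pairs share all their lists.

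A gene was called changed over the pairs if 7 or more of the 10 pairs shifted its cover by at least 10 points in one direction and no more than 1 shifted it as far in the other. With sen1 2 frames were called higher, YBL005W-B and YLR410W-B, and 0 lower, against 0.497% and 0.0191% of all genes. With rrm3 2 were called higher, YBR012W-B and YLR227W-B, and 0 lower, against 0.172% and 0.153%. No flank was called higher, upstream or downstream, where 0.416% and 0.377% of all genes were with sen1 and 0.303% and 0.396% with rrm3. In the downstream window 19 of the 26 frames had cover in some list and were tested, and upstream all 26.

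YLR410W-B in S phase had 2.65% in wild type and 86.3% in sen1, and 70.4% in rrm3 and 85.4% in sen1rrm3. In log phase it had 9.33% in wild type and 28.3% in sen1, 22.3% in rrm3 and 41.8% in sen1rrm3, 21.8% in top1 and 53.0% in sen1top1, and 50.3% in rrm3top1 and 47.0% in sen1rrm3top1. At 32 °C it had 50.1% in wild type against 84.9% in sen1 and 30.7% in rrm3 against 85.1% in sen1rrm3 (both mixed), 48.04% in top2-1 against 11.5% in sen1top2-1, and 37.0% in rrm3top2-1 against 47.7% in sen1rrm3top2-1. The frame was higher with sen1 in 8 of 10 pairs, by a mean of 22.8 ± 32.2 points (SD, n = 10 pairs, exact permutation p = 0.0527, adjusted p = 0.814). YLR410W-B is also the frame whose Rpb1 cover differed between wild type and sen1 by 27.0 points.

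YBL005W-B, which has a tRNA gene 476 bp downstream, was higher with sen1 in 7 of 10 pairs by a mean of 24.2 ± 30.9 points (SD, n = 10 pairs, exact permutation p = 0.0371, adjusted p = 0.814). Its S-phase values were 4.74% in wild type, 81.6% in sen1, 78.6% in rrm3 and 99.5% in sen1rrm3, and its log-phase values 5.86%, 16.6%, 57.7% and 48.9%. In log phase on rrm3 it was thus lower with sen1.

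YLR227W-B, with a tRNA gene 818 bp upstream, was higher with rrm3 in 8 of 10 pairs by a mean of 20.2 ± 19.2 points (SD, n = 10 pairs, exact permutation p = 0.0117, adjusted p = 0.777). In S phase rrm3 had 79.7% against 30.8% in wild type, and sen1rrm3 84.3% against 70.3% in sen1. In log phase rrm3 had 47.8% against 2.03% in wild type, sen1rrm3 49.3% against 17.3% in sen1, rrm3top1 31.6% against 16.9% in top1, and sen1rrm3top1 52.2% against 20.6% in sen1top1. All 6 of these pairs were higher with rrm3. YBR012W-B was higher in 7 of 10 pairs by a mean of 17.0 ± 21.9 points (SD, n = 10 pairs, exact permutation p = 0.0430, adjusted p = 0.777), with 5.82% in log-phase wild type and 45.7% in rrm3.

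The counts were lower without the mixed pairs and without the pairs that use the wild-type lists of S and log phase. Without the pairs that use those 2 lists, and with a rule of 6 of 8 pairs, 1 frame was called higher with sen1 and 0 with rrm3, and 2 and 1 were higher at an unadjusted p under 0.05. Without the mixed pairs the sen1 counts were 1 and 2. The alternatives were chosen after seeing the data and leave fewer pairs, and what the lower counts depend on was not tested.

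top1 and top2-1 were compared in 4 pairs each, which allow no p under 0.125 in the exact permutation test, so only the differences are given. With top1 mean frame cover differed by 9.45 points on wild type, 8.08 on sen1, -7.55 on rrm3 and 5.396 on sen1rrm3. With top2-1 it differed by -1.07 on wild type and 4.81 on rrm3, and by -65.3 on sen1 and -51.6 on sen1rrm3, both mixed. The closely spaced pairs thus moved less with either topoisomerase mutation than the log-phase pairs moved with rrm3. S phase against log phase mixes the kinds in each strain and was not compared further.

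Genes that act on Ty elements were listed to set the frames beside them, and all members were found in the gene table. Those named below were picked after their values were seen. Among 8 transcription factors of Ty, TYE7 and GCN4 were fully covered by Rpb1 in all 4 strains and STE12, TEC1 and TEA1 had none. Among 10 chromatin and coactivator genes SNF6, a subunit of the Swi/Snf remodeller, had 34.4% in wild type, 40.3% in rrm3 and 0% in sen1 and sen1rrm3. Among 13 RNA polymerase III and integration genes RPC40, a shared subunit of polymerases I and III that integrase contacts, had 91.2%, 84.8%, 92.7% and 83.9% in wild type, sen1, rrm3 and sen1rrm3. RPC53, another polymerase III subunit, had 47.0% in wild type, 0% in sen1 and rrm3 and 14.8% in sen1rrm3. Of the 16 genes listed for restriction and copy number control, FUS3, a mitogen-activated kinase, had 0% in wild type and rrm3, 42.8% in sen1 and 34.1% in sen1rrm3.

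No gene of these 4 lists was gained or lost in Rpb1 in any contrast or called changed in the bTMP pairs. Of the 4 initiator methionine tRNA genes, IMT1 and IMT2 were gained in sen1, with 100% of the gene covered, and IMT2 had 66.7% in sen1rrm3. Over all 275 nuclear tRNA genes Rpb1 touched 21.5% in wild type and 49.5% in sen1, so cover in sen1 is not particular to these genes. The share of all tRNA genes gained was not counted. The 8 histone genes, which are transcribed in S phase, were fully covered in all 4 Rpb1 lists.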

How the data were processed

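Rpb1 chromatin and bTMP pull-downs were given as 24 peak lists, each with chromosome, start, end and 1 score per peak. The score is the deposited value of the authors, and the sources used here do not say what scale it has. Bowtie2, Picard, SAMtools and deepTools are named, per the submitters' processing notes, without versions. They do not give the peak caller, the genome build, the handling of reads that match several places or whether input was subtracted. Each list comes from 1 sample, without pooling.

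Gene names and positions came from the RefSeq table of assembly R64. Its fit to the lists was checked on 132 ribosomal protein genes, of which 99.4% of the base pairs lay under Rpb1 in place, with the same share for shifts of -10 to 50 bp. Cover was the percentage of a window under merged peaks, and relative coverage was the mean cover divided by the share of the 12.1 Mb of 16 nuclear chromosomes under peaks. Read depth is unknown.

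The members and gene lists were chosen with earlier results of these data known. Frames named with values were those gained or lost by Rpb1, the 5 most and 5 least covered by Rpb1 and by bTMP, the 5 with the largest flank differences in sen1, and those called over the pairs, with their nearest tRNA genes. Each group has 1 library. The sen1 and rrm3 pairs are different strains and conditions standing in for repeats. Their p-values set the mean difference against its variation over these backgrounds, and they hold no error between replicate libraries. Two-sided exact sign-flip permutation tests with Benjamini-Hochberg adjustment and limma 3.58.1 were run over all protein-coding genes with cover, after tests on simulated data. Python 3.11.15, numpy 2.4.6, pandas 2.3.3, SciPy 1.17.1, matplotlib 3.10.9 and R 4.3.3 were used. Alternatives were the upper part of each list by score, lists of equal length, other flank widths, overlaps, length limits and gain rules, closely spaced lists alone, tRNA distances, and pairs left out.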

Additional observations from a re-analysis of the deposited data

Results flagged for a closer look

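At 32 °C without top2-1, the rrm3 pair on wild type moved the mean bTMP cover of the Ty frames by -9.11 points. The pair on sen1, between the widely spaced lists so labelled, differed by -0.43 points, with a median of 0. In that pair 2 frames were higher and 3 lower by at least 10 points. The mean of both pairs was -4.77 points, while both pairs of each other class named here moved the mean cover up. The mean difference was 30.4 points in S phase, 32.4 in log phase and 22.5 in log phase with top1. The gaps between these classes and the 32 °C mean were 35.18, 37.15 and 27.31 points. That mean includes the pair of widely spaced lists, and the differences were not tested.

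The sen1 pairs with top2-1 at 32 °C moved the mean cover down in both backgrounds, by a mean of -10.04 points. Both pairs of the other classes moved it up, by a mean of 36.5 points in S phase, 9.13 in log phase, 14.9 in log phase with top1 and 50.3 in the pairs labelled 32 °C, where the lists are of mixed kinds. The gaps to the top2-1 pairs were 46.57, 19.17, 24.95 and 60.34 points, and these differences were not tested either.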

How the results depend on the processing

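Of 193 alternative values for 34 results, 146 lay within 1.5 times the reported count and 47 lay further away. In the upper part of each list by score, frames with at least 50% Rpb1 cover in rrm3 fell from 14 to 7, touched downstream flanks from 15 to 8 in wild type and from 17 to 7 in rrm3, frames called higher with rrm3 from 2 to 1 and those at an unadjusted p under 0.05 from 15 to 6. There, downstream flanks lower in sen1 were 2, frames gained in sen1 1, downstream flanks gained 3, and bTMP lists above the genome share downstream 13. With lists of equal length, upstream flanks lower in sen1 were 2 and bTMP lists above the genome share downstream 10. Flanks of 500 bp gave 0 lower downstream and flanks of 2 kb 0 lower upstream. With 80% against at most 20% as the gain rule, 1 upstream and 0 downstream flanks were gained. Closely spaced lists alone left 7 of 14 above the genome share upstream and 2 downstream, and 9 frames had a tRNA gene within 500 bp. The cause of these shifts was not tested.

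Leaving out each pair in turn, with a rule of 6 of 9 pairs, gave 2 to 11 frames called higher with sen1 and 6 to 21 at an unadjusted p under 0.05, both highest without the sen1top2-1 pair. With rrm3 it gave 2 to 11, highest without the 32 °C pair on wild type, and 4 to 16. No frame was called lower or passed the adjusted threshold in any of these. Chosen after seeing the data, leaving out the S-phase and log-phase wild-type lists gave 1 and 2 frames with sen1 and 0 and 1 with rrm3, and leaving out pairs of mixed kinds gave 1 and 2 with sen1. The labels give each group 1 library, so no setting leaves out a replicate. Read depth is unknown, so differences in cover may follow list length, and reads shared between copies limit what any single frame can show.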
